A study of Homo sapiens with 5 samples.

Results

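Human HEK293T cells lacking CFIm68 were compared with HEK293T cells lacking CFIm59, using poly(A) site read counts from 2 cell lines of each knockout. These 4 libraries were taken from the 5 of the series by their labels. The fifth, from unedited HEK293T cells, entered no main fit, and its values are given beside the others as the background. All knockouts were made with CRISPR/Cas9 in HEK293T, a line from human embryonic kidney, and were grown alike. The labels call the lines of a genotype cell line 1 and cell line 2. The sources used here do not say whether each grew from 1 clone or where in the gene the edit lies.

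Cleavage factor Im (CFIm) helps choose where a pre-mRNA is cut and polyadenylated. Its small subunit CFIm25, made from NUDT21, binds the letters UGUA upstream of the cut, and it pairs with a large subunit, either CFIm68, made from CPSF6, or CFIm59, made from CPSF7. Both large subunits carry domains rich in arginine and serine that contact other parts of the 3′ end machinery. A gene with several poly(A) sites in its last exon makes a shorter 3′ untranslated region from the upstream (proximal) site and a longer one from the downstream (distal) site. The comparison asks how site choice differs when one large subunit rather than the other is missing.

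The letters just before the cut are shown first for pairs with large differences in each direction, taken from those that could be matched to an annotated transcript. They come from GENCODE 29 transcripts on GRCh38 and are written as DNA, 5′ to 3′ on the gene's own strand. Capitals mark TGTA and the poly(A) signals AATAAA and ATTAAA. Each stretch is 30 bases long. It is the stretch of the last 100 bases with most copies of TGTA, the one nearest the cut where several tied. Where those bases held no TGTA, it ends at the cut. Further copies within the 100 bases can lie outside the printed stretch. The genes are those with the largest differences among matched pairs averaging 50 or more reads per library. In NADK2, ESYT2, ATF7IP and SLC25A46 the lines without CFIm68 used the proximal site more, and in SGSM3 and IPO13 they used the distal site more.
NADK2 proximal: AATAAAggactaaatatttaggatttgaaa
NADK2 distal: ccctatgtgAATAAAattactccactgtta
ESYT2 proximal: aaagatgaAATAAAgtattcaaaatattaa
ESYT2 distal: TGTAtttattcAATAAAacctttatgttag
ATF7IP proximal: TGTAtacactacatttgtttataaccagaa
ATF7IP distal: TGTAtaagtgttaccTGTAgtggggttttg
SLC25A46 proximal: TGTActtaaatgaacctcatttccctttta
SLC25A46 distal: TGTAatatgaaaagttcAATAAAatgtcga
SGSM3 proximal: tataAATAAActgtgtctgtctttgagaaa
SGSM3 distal: catggactgaataagatggactaacaggcc
IPO13 proximal: cctattcccaaagagtaaacctggaccctc
IPO13 distal: ccatccccATTAAAttaatcccaacatgca
The windows differ from gene to gene. TGTA stood 2 times before the proximal end and 3 times before the distal end of ATF7IP, 1 time before each end of SLC25A46, and only before the distal end of ESYT2. Neither end of NADK2, SGSM3 or IPO13 had it within 100 bases.

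ESYT2, a tether between the endoplasmic reticulum and the plasma membrane, used its proximal site for 10.4 and 7.11% of reads in the lines without CFIm59 and for 87.8 and 90.4% in the lines without CFIm68. ATF7IP, a cofactor of histone methylation, stood at 11.8 and 21.3% against 95.2 and 96.2%. SLC25A46, a protein of the mitochondrial outer membrane, stood at 9.09 and 15% against 93.2 and 87.5%. IPO13, a nuclear transport receptor, went the other way, with 58.1 and 43.3% in the lines without CFIm59 and 25 and 9.38% in the lines without CFIm68. The lines of the 2 genotypes did not overlap in any of these pairs, as their choice required.

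Sequencing gave 1673687 and 2585923 reads for the lines without CFIm59, 2727728 and 2078376 for those without CFIm68, and 2924266 for the control. Sites in the last exon took 88.0 to 91.2% of nuclear reads. Mitochondrial sites took 9.79 and 10.8% of all reads in the lines without CFIm59 and 8.02 and 6.01% in the lines without CFIm68. Of 9 genes marking HEK293T cells, all 9 had reads in at least 1 line, and their summed level was 768 to 998 CPM, the reads of a gene scaled to a common library size, of which VIM made 508 to 797. IRS4 had 0 and 0 reads in the lines without CFIm59 and 61 and 19 in the lines without CFIm68. NEFL stood at 83.1 and 91.6 against 24.7 and 28.0 CPM, and NEFM at 8.62 and 39.8 against 67.3 and 96.7 CPM. Marker sums were 11.7 to 20.5 CPM for fibroblasts, 65.1 to 136 for epithelia, 33.9 to 69.3 for neurons and 1.85 to 8.95 for blood cells, with COL1A2, KRT5 and KRT14 at 0 reads. Log levels of genes correlated at 0.963 and 0.967 within a genotype and at 0.871 to 0.876 across genotypes, as a description over 13353 genes that share libraries.

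The gene sums of the CFIm subunits were read as a check of the labels. CPSF6 had 145 and 147 CPM in the lines without CFIm59 and 49.4 and 46.5 CPM in the lines without CFIm68, with 120 in the control. It was lower in the CFIm68 knockout by the quasi-likelihood test of edgeR, whose Benjamini-Hochberg adjusted p is the one given throughout (log2 -1.60, SE 0.21, adjusted p = 1.19e-06). Within its last exon on chromosome 12, share moved to the first site. The site at 69663450 had 30 and 38 reads in the lines without CFIm59 and 52 and 50 in the lines without CFIm68. The site at 69665310 had 7 and 12 reads against 0 and 0, and the last site, at 69668134, had 65 and 100 against 22 and 11. Of all CPSF6 reads, the first site thus held 12.8 and 11.05% against 37.7 and 48.5%, and the last 27.7 and 29.1% against 15.9 and 10.7%. Sites outside the last exon held 5.53 and 6.10% against 17.4 and 13.6% (log2 1.58, adjusted p = 0.0135), a call that ended with DESeq2 (adjusted p = 0.197), without a minimum beyond 1 read (adjusted p = 0.102) and without CFIm59 knockout line 1, CFIm59 knockout line 2 or CFIm68 knockout line 1 (adjusted p = 0.15 to 0.173).

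CPSF7 had 70.2 and 57.4 CPM in the lines without CFIm59 and 131 and 208 CPM in the lines without CFIm68 (log2 1.41, SE 0.23, adjusted p = 2.94e-05), with 59.8 in the control. Its 3′ reads therefore do not check the label of the CFIm59 knockout. NUDT21 had 83.7 and 70.2 CPM against 145 and 137 CPM (log2 0.88, SE 0.20, adjusted p = 0.00205), with 120 in the control. Without CFIm59 knockout line 2 its call ended (log2 0.75, adjusted p = 0.0656). Both other subunits were thus higher in the lines without CFIm68 than in the lines without CFIm59. The control lay between the 2 lines without CFIm59 for CPSF7 and between the 2 genotypes for NUDT21.

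Proximal sites were used far more in the lines without CFIm68 than in the lines without CFIm59. For each gene, the 2 sites with most reads over the 4 libraries formed a pair, and the ratio of proximal to distal reads was tested in 5865 genes. The proximal site was used more in 2402 of them (41.0%) and less in 361 (6.16%), so 47.1% of genes were called at an adjusted p under 0.05. Over all pairs, the proximal site took a median of 27.6 and 28.1% in the lines without CFIm59 and 48.4 and 46.0% in the lines without CFIm68, with 33.3% in the control. The control thus lay between the 2 knockouts. Called genes differed by a median of 28.2 percentage points to proximal (quartiles 17.5 and 43.5) and -19.5 points to distal (quartiles -29.0 and -10.5). The difference was over 50 points in 418 genes to proximal and 15 to distal. The main site itself changed, from under to over 50% proximal use or the reverse, in 1005 genes to proximal and 104 to distal. The lines of the 2 genotypes did not overlap in 2389 of the 2402 genes and in 358 of the 361. Over all 5865 pairs, called or not, they did not overlap toward proximal in 3346 and toward distal in 887. With 2 lines a side, the counts among called genes therefore add little to the calls. Calls to distal were fewer in some settings, with 196 by DESeq2 and 231 without CFIm59 knockout line 2.

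**Figure D1:**
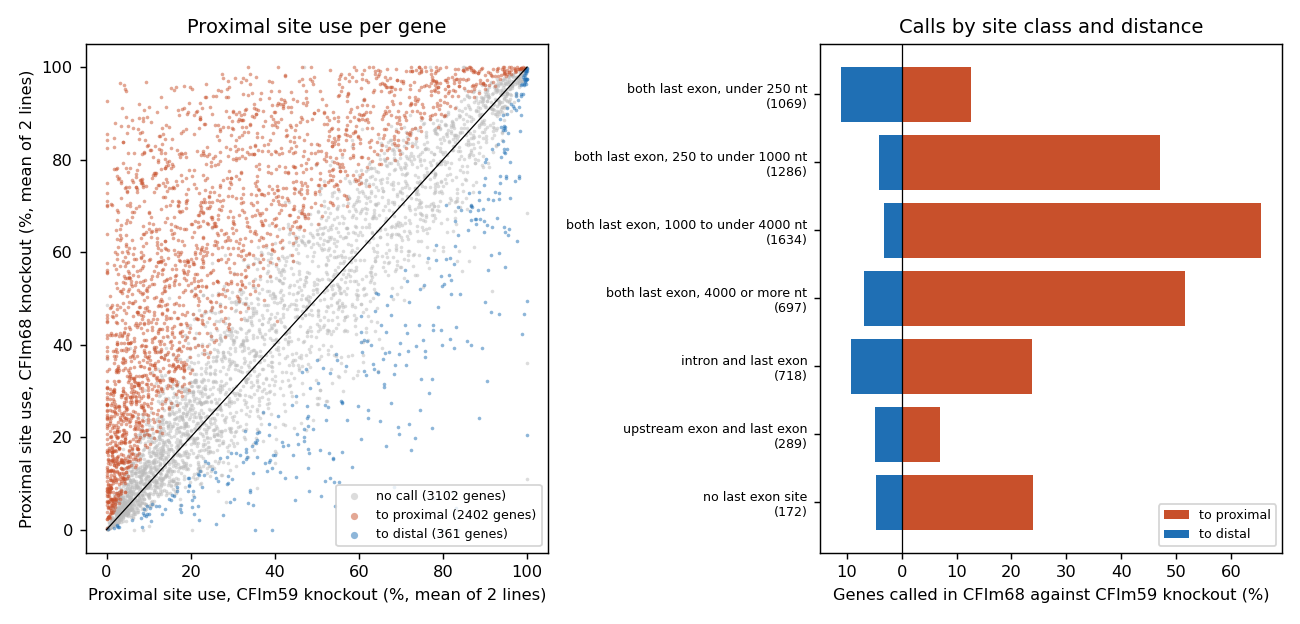
Left, proximal site use per gene in % (mean of 2 lines) in the CFIm59 knockout on the x axis and in the CFIm68 knockout on the y axis, 1 point a gene; 2402 genes called to proximal lie above the diagonal and 361 called to distal below it. Right, % of genes called to proximal (red) and to distal (blue) by site class and distance, with the number tested in brackets; the red bar is longest, at 65.5%, for last exon sites 1000 to under 4000 nt apart.

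The difference depended on where the sites lay. Pairs lying wholly in the last exon moved to proximal in 2170 of 4686 genes (46.3%) and to distal in 273 (5.83%). When an intron site was paired with a last exon site, 171 of 718 genes (23.8%) moved to proximal and 66 (9.19%) to distal. Sites in upstream exons showed little change: 20 of 289 pairs (6.92%) moved to proximal and 14 (4.84%) to distal. Among last exon pairs under 250 nt apart the directions were nearly even, with 135 of 1069 genes (12.6%) to proximal and 118 (11.04%) to distal. At 250 to under 1000 nt, 47.0% of 1286 genes moved to proximal. At 1000 to under 4000 nt, 65.5% of 1634 genes did and 3.24% moved to distal, and at 4000 nt or more, 51.6% of 697 and 6.89%.

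Mean 3′ ends lay further upstream as well. The read-weighted mean end, taken over all last exon class sites of a gene and not its pair alone, lay a median of -627 nt from its place in the CFIm59 knockout in genes called to proximal (quartiles -1389 and -230 nt; negative is upstream). Over all genes with a last exon pair the median was -244 nt. Over quartiles of read number, from few to many reads, 41.4, 48.5, 49.4 and 45.9% of last exon pairs were called to proximal and 4.68, 3.58, 5.57 and 9.49% to distal. The median difference over all pairs of a quartile was 17.4, 14.6, 9.32 and 4.05 percentage points, so deeply read pairs differed less and had more calls to distal.

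In the genes with the largest differences the pair changed over from one site to the other. NADK2, the mitochondrial NAD kinase (chromosome 5, minus strand, hg19 last exon sites at 36194926 and 36192987), used the proximal site for 5.06 and 3.28% of reads in the lines without CFIm59 and 98.4 and 93.6% in the lines without CFIm68. The control stood at 18.2%. The difference was 91.9 percentage points (4.17 ± 1.26 against 96.0 ± 3.41%, SD, n = 2; log2 of the ratio 9.19, SE 0.62, adjusted p = 1.22e-17). RIF1, which guides replication timing and DNA repair (chromosome 2, plus strand, 152331955 and 152333850), went from 5.17 and 3.49% to 94.5 and 96.1%, with 4.11% in the control (log2 8.71, SE 0.62, adjusted p = 5.51e-17). EPHA7, an ephrin receptor (chromosome 6, minus strand, 93952780 and 93949745), went from 9.23 and 9.59% to 95.6 and 97.8%, with 28.8% in the control (log2 7.94, SE 0.62, adjusted p = 9.92e-16). Within these 3 pairs the lines without CFIm68 had almost only proximal reads and the lines without CFIm59 almost only distal ones. Other sites of the genes held reads too: of all RIF1 reads, the proximal site held 30.3 and 32.9% in the lines without CFIm68, and the distal site 31.4 and 35.3% in the lines without CFIm59.

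NAB1, a corepressor of EGR transcription factors, used its proximal site for 2.78 and 1.47% of reads in the lines without CFIm59 and 87.4 and 88.6% in the lines without CFIm68. PUM2, a Pumilio repressor of mRNAs, stood at 2.44 and 0.966% against 85.5 and 83.9%. DSC3, a desmosomal cadherin (chromosome 18, minus strand, 28573751 and 28570345), had no proximal read in either CFIm59 knockout line and 87.9 and 83.3% in the lines without CFIm68. A floor of 3 reads among 63 and 25 allows a share of up to 4.76 and 12% in the lines at 0. C21orf91 stood at 4.17 and 11.1% against 91.8 and 92.3%, and C12orf49, a regulator of the SREBP pathway, at 10.0 and 2.08% against 91.1 and 86.0%. SLC12A2, the sodium, potassium and chloride cotransporter NKCC1, stood at 7.69 and 10.0% against 88.1 and 93.3%. IREB2, the iron regulatory protein IRP2, stood at 4.55 and 10.9% against 87.7 and 90.1%. All 10 pairs lay 1895 to 4273 nt apart, and in all 10 the calls held under every alternative that tested them.

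**Figure D2:**
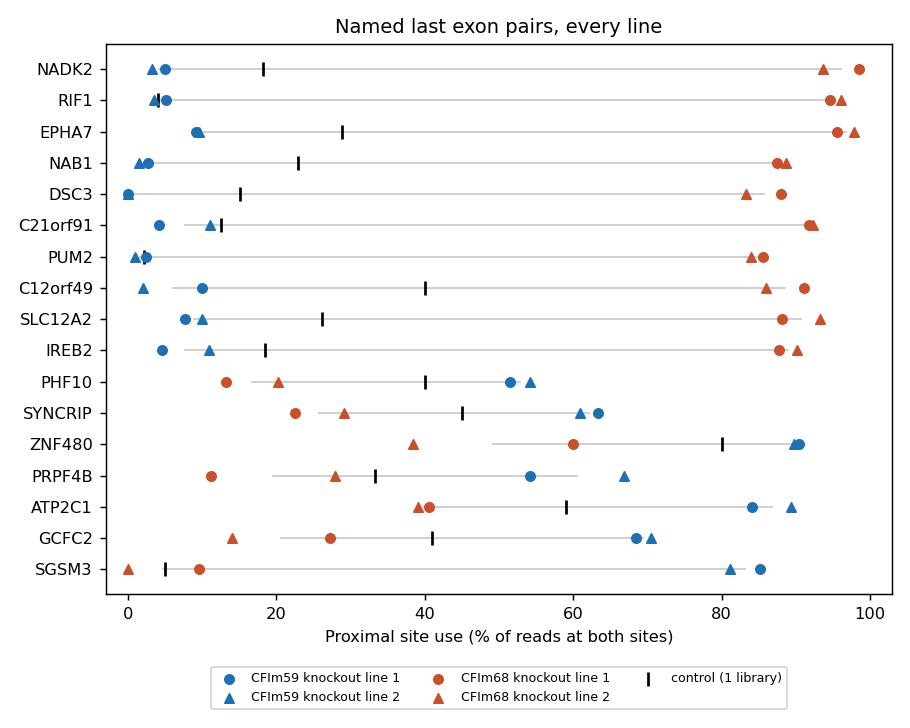
Proximal site use in % of the reads at both sites (x axis) for the 10 named genes moved to proximal and 7 moved to distal (y axis), in each CFIm59 knockout line (blue), each CFIm68 knockout line (red) and the 1 control library (black bar); grey lines join the genotype means. In NADK2 the CFIm68 lines sit at 98.4 and 93.6% and the CFIm59 lines at 5.06 and 3.28%, and in SGSM3 the order is reversed.

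A smaller set of genes used the distal site more when CFIm68 was missing. SGSM3, a modulator of small GTPases (chromosome 22, plus strand, 40806107 and 40806288, 181 nt apart), used the proximal site for 85.2 and 81.1% of reads in the lines without CFIm59 and 9.52 and 0% in the lines without CFIm68. The 0 rests on 37 reads, for which the limit is 8.11%. The control stood at 5%, beside the lines without CFIm68 (log2 -6.39, SE 0.63, adjusted p = 2.07e-12). ATP2C1, the Golgi pump for calcium and manganese, stood at 84.1 and 89.4% against 40.6 and 39.1%. Its 2 sites, at 130720836 and 130735527, were listed under different transcripts and need not lie in the same exon. ZNF480, a zinc finger gene, stood at 90.4 and 89.7% against 60.0 and 38.5%.

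For 4 other genes the call to distal described only some of the sites of the last exon class. Sites of this class in GCFC2, PRPF4B and PHF10 were listed under different transcripts, so they need not lie in the same exon. GCFC2 stood at 68.4 and 70.5% against 27.3 and 14.0%, and PRPF4B, a splicing kinase, at 54.2 and 66.9% against 11.2 and 28.0%. SYNCRIP, the RNA-binding protein hnRNP Q, stood at 63.3 and 61.0% against 22.5 and 29.1%, and PHF10, a subunit of the BAF chromatin remodeller, at 51.5 and 54.2% against 13.2 and 20.2%. When the most proximal and most distal site were paired instead, GCFC2 and PHF10 moved to proximal (log2 3.41 and 2.74). SYNCRIP turned in sign without passing (log2 1.09, adjusted p = 0.225) and PRPF4B lost its call (log2 -1.20, adjusted p = 0.0646). With sites ranked by mean CPM, SYNCRIP moved to proximal (log2 5.02). In SYNCRIP (chromosome 6, minus strand) the middle site at 86322296 gained, with 29 and 64 reads in the lines without CFIm59 and 359 and 234 in the lines without CFIm68. Its downstream site at 86321039 fell from 108 and 177 reads to 28 and 28, and its upstream site at 86323923 had 50 and 100 against 104 and 96. The gain at a middle site was therefore read as distal against the upstream partner.

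All sites of a gene were then tested together, each against the rest of its gene. Of 18978 sites, 3192 gained share in the CFIm68 knockout (16.8%) and 2547 lost share (13.4%), so that 30.2% were called. Last exon sites gained in 2903 of 15842 cases and lost in 2303. Intron sites gained in 263 of 2336 and lost in 232, and upstream exon sites gained in 26 of 800 and lost in 12. In the 3084 genes with 3 or more tested sites, the first site gained in 1001 and lost in 71, whereas the last site gained in 78 and lost in 1180. Of the 6270 middle sites, 1420 gained and 821 lost. A gain at the first site together with a loss at the last occurred in 534 genes and the reverse in 3. Without CFIm59 knockout line 2, 2045 sites gained. In 666 genes the only gains were at middle sites.

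RIF1 shows how the share moved along an exon. Its first last exon site, at 152331955, had 3 and 3 reads in the lines without CFIm59 and 69 and 49 in the lines without CFIm68, and the site at 152332418 had 11 and 19 against 46 and 33. From 152332875 on the order turned, with 16 and 13 reads against 1 and 3 there. Within its last exon, RIF1 thus gained share at upstream sites and lost it at downstream ones. The site at 152333850 had 55 and 83 reads against 4 and 2, and the last one, at 152338683, had 31 and 39 against 16 and 13. An intron class site further downstream, at 152363240, gained, with 0 and 2 reads against 12 and 8 (log2 3.42, adjusted p = 0.0004).

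**Figure D3:**
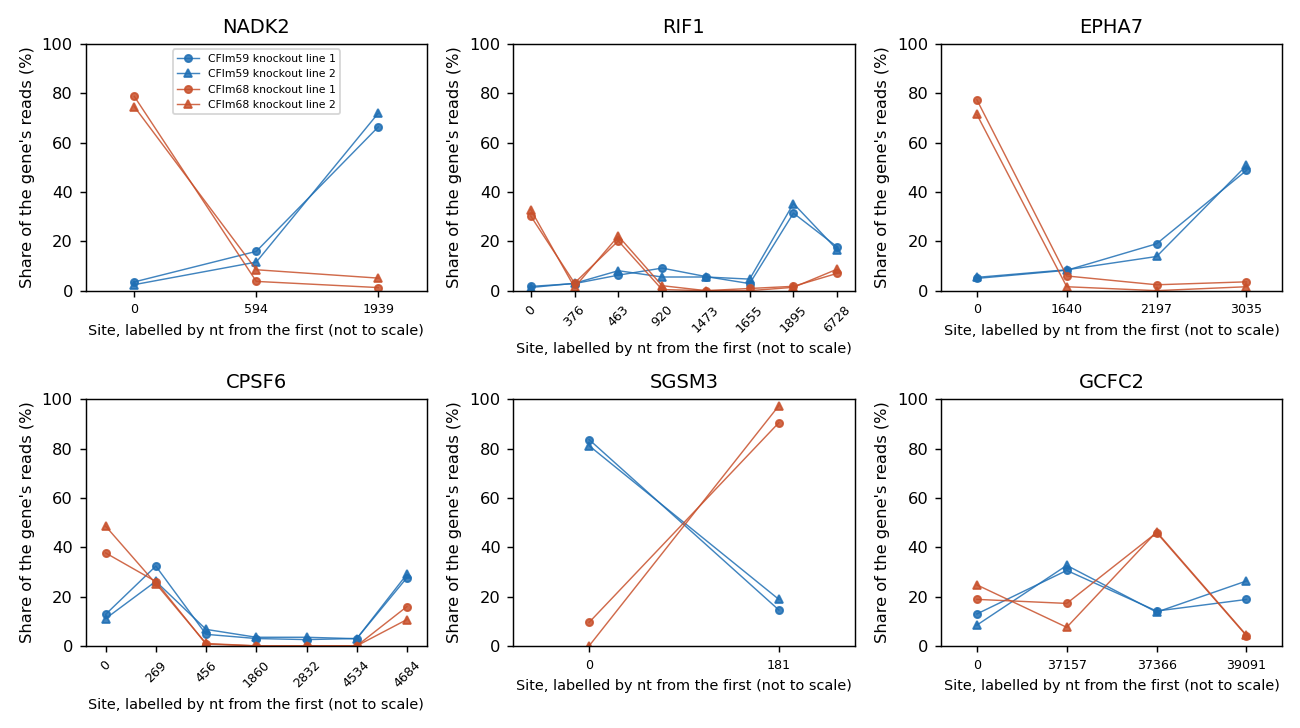
Share of a gene's reads in % (y axis) at each last exon site with 15 or more reads over the 4 libraries, in order along the gene; x labels give the distance in nt from the first site shown and spacing is not to scale. Blue, the 2 CFIm59 knockout lines; red, the 2 CFIm68 knockout lines. In NADK2, RIF1, EPHA7 and CPSF6 the red lines stand high at the first sites, in SGSM3 at the later site, and in GCFC2 at the third of 4 sites.

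The letters before the ends were compared for 735 of 4682 last exon pairs, those whose spacing matched 2 annotated transcript ends within 5 nt. TGTA was searched on the transcript's own strand in the 100 bases before each end. In pairs called to proximal (361), TGTA stood before 56.0% of proximal ends and 70.1% of distal ends, and 2 or more copies stood before 21.6 and 33.0%. In pairs with no call (333) the shares were 43.5 and 51.4%, and for 2 or more copies 15.9 and 14.4%. The 41 pairs called to distal had 43.9 and 51.2%. Over all 72908 distinct ends of protein-coding transcripts the share was 38.3%. These ends are not a like set: 39.2% had AATAAA or ATTAAA within 40 bases. Over all matched pairs, 65.0% of proximal and 78.5% of distal ends did. The pairs called to proximal were further apart than those with no call (median 1363 against 493 nt). Among pairs 1000 to under 4000 nt apart, TGTA stood before 56.3% of proximal and 70.0% of distal ends in those called to proximal (190), and before 33.7 and 53.7% in those with no call (95). At this distance the called pairs had the higher share at both ends, and the gap in this share was wider in the pairs with no call. For 2 or more copies the shares were 21.6 and 31.6% in the called pairs and 13.7 and 12.6% with no call. Under 1000 nt apart, TGTA stood before 59.3% of proximal and 65.9% of distal ends in pairs called to proximal (135). With no call (230) these shares were 47.4 and 49.1%.

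The poly(A) signal AATAAA stood within 40 bases of 49.3% of proximal and 67.6% of distal ends in pairs called to proximal, and of 46.2 and 58.6% in pairs with no call. These are descriptions of letters, with no test, and most pairs could not be matched.

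Genes whose poly(A) choice involves sites outside the last exon were read by class. For 4320 genes the reads at intron and upstream exon sites were summed and set against those at last exon sites. The share outside the last exon was higher in the CFIm68 knockout in 157 genes (3.63%) and lower in 245 (5.67%), so that 9.31% were called. The counts differed by position. Where the main site outside the last exon lay downstream of the main last exon site, 100 of 420 genes (23.8%) were lower and 11 higher. Where it lay upstream, 145 of 3900 were lower and 146 higher. The counts fell to 22 and 61 with DESeq2, and without CFIm59 knockout line 2 to 38 and 97. Without CFIm59 knockout line 1 they were 70 and 119, without CFIm68 knockout line 1 60 and 147, and without CFIm68 knockout line 2 109 and 137.

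In PURA, a nucleic acid binding protein of neurons (chromosome 5, plus strand), 50 and 29.7% of reads lay outside the last exon class in the lines without CFIm59 and 97.3 and 95.8% in the lines without CFIm68, with 44.5% in the control (log2 5.54, SE 0.51, adjusted p = 1.98e-24). Its last exon site at 139498998 had 26 and 100 reads against 1 and 2, and the intron class site at 139495058 had 1 and 2 against 26 and 18. HNRNPLL, a splicing regulator, stood at 12.8 and 8.08% against 60.0 and 69.6%, but had only 20 and 23 reads in the lines without CFIm68. Reads outside its last exon class numbered 10 and 8 against 12 and 16. Those in the class numbered 68 and 91 against 8 and 7. MATK, a tyrosine kinase, stood at 0 and 3.23% against 42.5 and 53.1%, the 0 resting on 47 reads, which allows up to 6.38%. SETD4, a methyltransferase, stood at 11.4 and 17.8% against 59.4 and 56.9%, and TMEM185B at 37.1 and 25.7% against 73.8 and 72.9%. BASP1, a membrane protein of growth cones, stood at 5.41 and 5.82% against 46.2 and 62.5%, but had only 26 and 8 reads in the lines without CFIm68. All 6 main sites outside the last exon class lay upstream of the most read last exon site, by 3442 nt in PURA and 3999 nt in TMEM185B. The classes are those deposited and were not checked against exon boundaries. Such a site may therefore lie in or beside the last exon itself.

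All 6 genes with the largest fall had the site outside the last exon downstream of their most read last exon site. KIAA1143 (chromosome 3, minus strand) had 77.9 and 68.1% of reads outside the last exon class in the lines without CFIm59 and 5.71 and 9.42% in the lines without CFIm68, with 46.1% in the control (log2 -5.02, SE 0.43, adjusted p = 1.76e-27). Its downstream site at 44790237 fell from 79 and 124 reads to 8 and 10, while the last exon site at 44794528 rose from 21 and 56 to 151 and 122. KIF2A, a kinesin that takes microtubules apart, stood at 82.2 and 76.3% against 23.2 and 20%. LZIC stood at 80.3 and 67.4% against 16.7 and 17.4%, and SLC25A53, a mitochondrial carrier, at 81.0 and 69.7% against 16.6 and 32.1%. TAX1BP1, an autophagy receptor, stood at 64.3 and 62.3% against 14.7 and 17.1%, and NAF1, an assembly factor of box H/ACA particles, at 65.5 and 75.4% against 24.2 and 22.4%. In 5 of the 6 genes a last exon site upstream of the lost one gained share. The exception was SLC25A53 (chromosome X, minus strand), whose last exon class site at 103346279, downstream of the lost one, gained with 0 and 0 reads against 16 and 14 (0 and 0% against 11.03 and 17.9% of its reads, adjusted p = 0.0233). Its upstream site at 103375612 had 3 and 8 reads against 91 and 30 and did not pass (log2 1.01, adjusted p = 0.146).

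The cleavage and polyadenylation machinery differed in its own poly(A) sites. Lists of genes by role were read against the 41.0% of all pairs that moved to proximal and the 6.16% that moved to distal. Of 3 CFIm subunit pairs, NUDT21 moved to proximal, from 25.5 and 33.1% in the lines without CFIm59 to 74.0 and 76.3% in the lines without CFIm68. CPSF6 (53.9 and 47.4% against 62.1 and 70.3%, adjusted p = 0.0769) and CPSF7 (adjusted p = 0.494) did not pass, but CPSF6 passed with its most proximal and most distal site (adjusted p = 1.6e-09).

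Of 4 subunits of CPSF, which binds the poly(A) signal and cuts the RNA, 3 moved to proximal and 0 to distal. WDR33, which contacts that signal, went from 5.75 and 4.10% to 55.7 and 53.3%. CPSF2 went from 31.8 and 38.8% to 83.9 and 82.4%. FIP1L1 moved between a last exon and a downstream intron site, from 46.3 and 58.0% to 94.5 and 89.3%, while its last exon pair did not pass (log2 -0.35). Of 10 CstF, CFIIm and poly(A) polymerase genes and partners, 5 moved to proximal and 1, SSU72, to distal. CSTF2, the CstF subunit that binds GU-rich RNA, went from 51.4 and 63.4% to 93.3 and 95.6%. PAPOLA, the poly(A) polymerase, went from 2.76 and 5.71% to 22.2 and 21.1%. SSU72, a phosphatase of RNA polymerase II, lost its call with DESeq2 (log2 -0.99, adjusted p = 0.157), without CFIm59 knockout line 1 (log2 -0.64) and without CFIm68 knockout line 2 (log2 -0.51), and turned in sign with its most proximal and most distal site (log2 0.53, adjusted p = 0.404).

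Of 12 SR proteins, which select splice sites, 8 moved to proximal and 1, SRSF10, to distal, with a median difference over the 12 of 21.1 percentage points, against 8.29 over all pairs tested. SRSF7 went from 59.4 and 59.1% to 99.5 and 99.3% (log2 6.91, SE 0.42, adjusted p = 3.97e-19), so that its distal site was nearly unused. SRSF2 went from 12.03 and 14.1% to 44.7 and 42.1%. Of 19 hnRNP proteins, which package and process nuclear RNA, 9 moved to proximal (47.4%, against 41.0% over all pairs) and 2 to distal, with a median of 7.23 points, below that over all pairs. HNRNPK went from 69.8 and 65.1% to 96.9 and 94.7%. HNRNPDL went from 72.3 and 76.3% to 98.4 and 99.1%.

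The 2 hnRNP genes called to distal were SYNCRIP, above, and HNRNPD, whose pair 154 nt apart went from 19.0 and 13.1% to 8.82 and 5.75%. HNRNPD lost its call without CFIm59 knockout line 1 (log2 -0.96, adjusted p = 0.0668) and turned to proximal with its most proximal and most distal site (log2 6.89).

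Genes that act on 3′ untranslated regions or on small RNAs had lists of their own. Of 18 Pumilio, ELAV and related regulators, 12 moved to proximal and 0 to distal, with a median of 23.1 points. ELAVL1, the RNA stabiliser HuR, went from 7.94 and 7.88% to 61.6 and 41.1%. TIAL1, a stress granule protein, went from 73.2 and 82.0% to 96.8 and 97.6%. QKI is a regulator of splicing and RNA stability. It went from 1.33 and 3.14% to 14.2 and 13.3%. Of 10 microRNA pathway genes, 6 moved to proximal and 0 to distal. PRKRA, a partner of Dicer, went from 18.4 and 18.0% to 48.4 and 49.0%.

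AGO2, the Argonaute that cuts its targets, changed by class. Its share outside the last exon was 45.8 and 42.9% in the lines without CFIm59 and 5.35 and 5.56% in the lines without CFIm68 (log2 -3.75, adjusted p = 4.74e-09). AGO2 had 11 and 18 reads outside the last exon against 10 and 8, and 13 and 24 last exon reads against 177 and 136. The control stood at 20.8% of 48 reads.

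Of 7 genes for m6A, a methyl mark on mRNA, 3 moved to proximal and 2 to distal. YTHDC2, a reader of the mark, went from 31.4 and 27.3% to 70.5 and 67.1%. The 2 to distal, WTAP and ZC3H13, are parts of the writer complex, and in both the proximal site lay outside the last exon. WTAP used its intron site for 35.2 and 35.9% of reads in the lines without CFIm59 and 18.3 and 19.0% in the lines without CFIm68. With last exon sites only, both moved to proximal instead (log2 2.68 for WTAP and 5.74 for ZC3H13).

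Lists of signalling and trafficking genes followed. Of 13 RAS and MAPK genes, 8 moved to proximal (61.5%) and 0 to distal, with a median of 16.8 points. NRAS went from 7.94 and 3.53% to 51.0 and 55.0%. RAP1B, a small GTPase of cell adhesion, was almost silent at its proximal site in the lines without CFIm59, with 0.606 and 1.66% against 35.5 and 23.8%.

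Rab and Arf GTPases direct vesicle traffic. Of 22 members, 16 moved to proximal and 1 to distal. ARF3 went from 14.1 and 17.3% to 42.4 and 33.5%. RAB11A, the 1 to distal, had sites 161 nt apart and turned to proximal with its most proximal and most distal site (log2 4.79).

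Among 21 ubiquitin conjugation and shuttling genes, 13 moved to proximal and 0 to distal. UBE2D3, an E2 enzyme, went from 38.1 and 34.8% to 93.3 and 92.7%. UBE2N, the E2 enzyme of K63-linked chains, went from 62.4 and 62.1% to 96.3 and 97.3%. Cell cycle genes had calls in both directions. Of 21, 11 moved to proximal and 3, CDC25C, BUB1 and MCM7, to distal. RRM2, a subunit of ribonucleotide reductase, went from 36.4 and 43.9% to 87.7 and 87.1%. CDK1, the mitotic kinase, went from 7.76 and 9.11% to 35.4 and 30.9%. MCM7 lost its call with sites 50 nt or more apart (log2 -1.37, adjusted p = 0.0558).

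Of 12 cholesterol synthesis genes, 6 moved to proximal and 0 to distal. HMGCS1, an early enzyme of the pathway, went from 2.899 and 2.06% to 61.2 and 58.1%. Of 11 genes known from earlier studies of CFIm, 7 moved to proximal and 3, among them SYNCRIP and PAK2, to distal. VMA21, which helps build the vacuolar proton pump, went from 14.3 and 11.4% to 86.1 and 78.0%. LAMC1, a laminin chain, went from 29.2 and 45.8% to 81.9 and 84.4%.

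The 3 stress lists had 46.2, 50 and 57.1% of their tested members called to proximal, against 41.0% over all pairs. Of 13 heat shock chaperones, 6 moved to proximal and 1, HSPE1, to distal. DNAJA1, a partner of Hsp70, went from 33.4 and 36.8% to 92.7 and 91.6%. HSPA4 went from 83.6 and 85.7% to 99.4 and 99.3%. HSPE1, the mitochondrial partner of Hsp60, had sites 60 nt apart and went from 96.0 and 94.9% to 85.6 and 86.0%. Of 10 genes of the unfolded protein and integrated stress response, 5 moved to proximal and 0 to distal, and of 7 p53 targets, 4 and 0. MDM2, the ubiquitin ligase of p53, went from 3.83 and 2.91% to 23.4 and 13.9%. PPM1D, a phosphatase of the same response, went from 8.77 and 18.4% to 56.2 and 51.2%. The examples were taken from members that passed, so their agreement in direction adds nothing to the counts.

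Cytosolic ribosomal proteins and oxidative phosphorylation genes had other counts. Of 53 ribosomal protein genes, 7 moved to proximal and 20 to distal, and the median over the 53 was -0.24 percentage points. Most differences were small: the 20 to distal had a median of -2.27 points. RPL37A went from 99.9 and 99.9% to 97.6 and 97.1%, and lost its call with its most proximal and most distal site (log2 -0.74, adjusted p = 0.173). RPL13A, with sites 465 nt apart, went from 86.2 and 86.9% to 70.4 and 69.6%. RPS23 went to proximal, from 98.3 and 98.9% to 99.8 and 99.8%. Of 21 oxidative phosphorylation genes, 5 moved to proximal and 5 to distal. COX7C, a subunit of cytochrome c oxidase, went from 99.2 and 99.3% to 96.5 and 95.9%. Sites lay closer in these lists, with a median distance of 465 nt in the ribosomal and 484 nt in the oxidative phosphorylation list, against 1383 nt over all pairs. The part of distance in their counts was not tested. Of 2 histone pairs, 1, HIST1H1C, moved to distal.

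**Figure D4:**
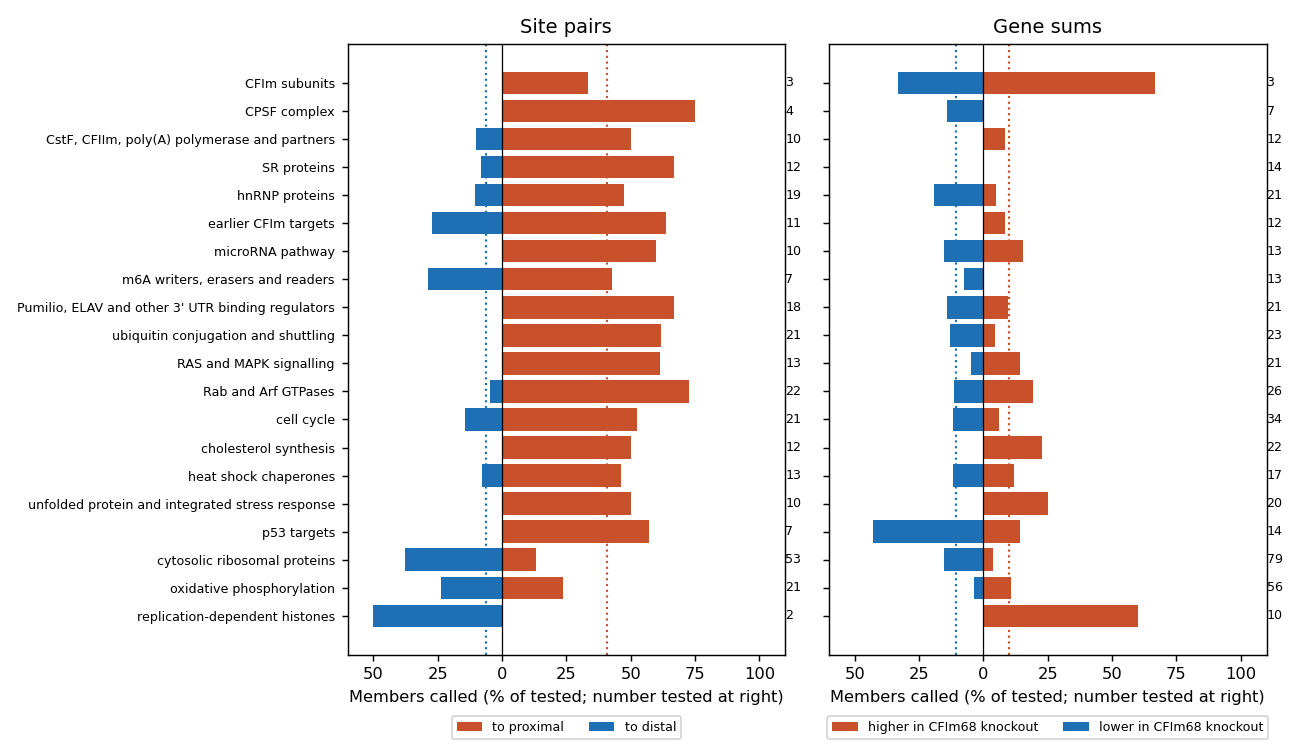
Members of each list called, in % of those tested (x axis; the number tested stands at the right), for site pairs (left) and gene sums (right); red bars are to proximal or higher and blue bars to distal or lower in the CFIm68 knockout, and dotted lines mark the share over all genes tested. In site pairs the ribosomal protein bars lean to distal (20 of 53), and the Rab and Arf bar to proximal (16 of 22).

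Gene sums differed in both directions. Reads of all sites were summed for 13353 genes, of which 1314 were higher (9.84%) and 1431 lower (10.7%) in the CFIm68 knockout, 20.6% in all. With library totals alone as the scale these counts were 1863 and 961, the median of all genes being then at log2 0.15. Differences over 2-fold were found in 763 genes higher and 879 lower. DESeq2 called 531 and 713, and leaving out CFIm59 knockout line 2 gave 795 and 934. Leaving out CFIm59 knockout line 1 gave 875 and 1125. In bulk samples, fewer cells that express a gene and less RNA of it per cell cannot be told apart.

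Genes that moved to the proximal site were called in sum at shares near those of all genes with a pair. Over all 5865 of these, 11.2% were higher in sum and 10.2% lower. Of the 2402 genes, 298 (12.4%) were higher and 224 (9.33%) lower, with a median log2 of 0.04 (quartiles -0.30 and 0.40). Of 3102 genes with no call on the pair, 324 (10.4%) were higher and 327 (10.5%) lower, with a median of -0.01. In the 418 genes moved by over 50 points, 61 were higher and 36 lower, and the median was 0.08.

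**Figure D5:**
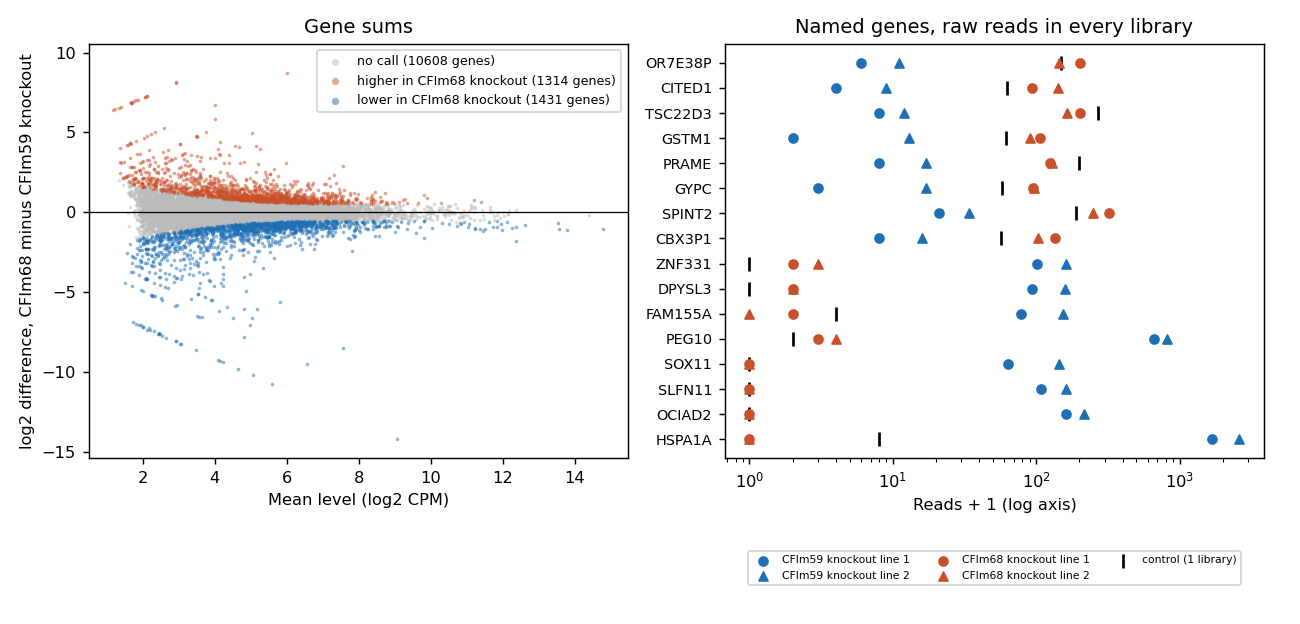
Left, log2 difference in gene sums, CFIm68 minus CFIm59 knockout (y axis), by mean level in log2 CPM (x axis), 1 point a gene, with 1314 genes higher and 1431 lower. Right, raw reads plus 1 on a log axis for the 16 named genes in every library; the blue lines stand at 63 or more reads in the 8 lower genes, where the red CFIm68 knockout lines have at most 3.

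The genes named as higher in the CFIm68 knockout had few reads in the lines without CFIm59 and clear signal in the control. TSC22D3, a glucocorticoid-induced regulator of transcription, had 7 and 11 reads in the lines without CFIm59 and 201 and 163 in the lines without CFIm68, with 270 in the control (4.51 ± 0.28 against 72.8 ± 1.19 CPM, SD, n = 2; log2 3.99, SE 0.31). CITED1, a transcriptional coactivator, had 3 and 8 reads against 93 and 140, and PRAME, an antigen of tumours and testis, 7 and 16 against 123 and 127. SPINT2, an inhibitor of serine proteases, had 20 and 33 reads against 321 and 248, and GYPC, a red cell membrane glycoprotein, 2 and 16 against 94 and 96. GSTM1, a glutathione transferase, had 1 and 12 reads against 105 and 89; its near-identical relatives make the assignment uncertain, as it does for the pseudogenes OR7E38P (5 and 10 against 200 and 142) and CBX3P1 (7 and 15 against 134 and 102). In all 8 genes the control, at 21.1 to 102 CPM, stood above both CFIm59 knockout lines.

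The genes named as lower were nearly silent in the lines without CFIm68 and in the control. PEG10, an imprinted gene derived from a retrotransposon, had 663 and 816 reads in the lines without CFIm59 and 2 and 3 in the lines without CFIm68, with 1 in the control (log2 -8.48, SE 0.35). OCIAD2, a mitochondrial protein, had 161 and 215 reads against 0 and 0, at least 78.7-fold lower at a floor of 3 reads per library. SLFN11, which halts replication under DNA damage, had 107 and 159 against 0 and 0, at least 55.1-fold lower. SOX11, a transcription factor of neural progenitors, had 63 and 144 against 0 and 0, at least 41.3-fold lower. The control held 0 reads of OCIAD2, SLFN11 and SOX11 too.

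FAM155A, part of a sodium leak channel, had 77 and 153 reads against 1 and 0, a ratio of 291 with a 95% counting interval of 51.7 to 11534. DPYSL3, a regulator of axon growth, had 93 and 157 against 1 and 1 (158-fold lower, 43.3 to 1312), and ZNF331, an imprinted zinc finger gene, 101 and 159 against 1 and 2 (110-fold lower, 37.1 to 535). HSPA1A had 1672 and 2608 reads against 0 and 0, with 7 in the control, whereas its near-identical neighbour HSPA1B had 928 and 1536 against 690 and 1406, with 1998 in the control. Reads of the 2 copies cannot be separated with certainty, so the HSPA1A value is uncertain.

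Counts in gene sums were also taken by list, to be read against 9.84% higher and 10.7% lower over all genes. Of 20 genes of the unfolded protein and integrated stress response, 5 were higher and 0 lower, with a median log2 of 0.42 against -0.01 over all genes. XBP1, the spliced transcription factor of that response, stood at 48.6 and 78.8 CPM in the lines without CFIm59 and 157 and 144 in the lines without CFIm68. DDIT4, a stress inhibitor of mTOR, stood at 50.5 and 47.5 against 137 and 96.7 CPM, and PDIA4, a folding enzyme, at 124 and 119 against 278 and 206 CPM. The control had 208 CPM of XBP1 and 320 of DDIT4, above all 4 knockout lines. Of 22 cholesterol synthesis genes, 5 were higher and 0 lower, with a median log2 of 0.31. Among these, DHCR7, NSDHL and IDI1 lost their calls with DESeq2 (adjusted p = 0.105, 0.181 and 0.0819). The control had 139 CPM of INSIG1 and 117 of IDI1, above all 4 knockout lines. Its 65.4 CPM of DHCR7 and 51.5 of NSDHL lay between the 2 lines without CFIm68. INSIG1, a sterol sensor partner, stood at 43.1 and 30.8 against 61.9 and 91.7 CPM, but lost its call without CFIm59 knockout line 2 (log2 0.83, adjusted p = 0.0543).

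Of 14 p53 targets, 6 were lower and 2 higher, with a median log2 of -0.60. BBC3, which promotes cell death, stood at 85.5 and 60.8 CPM against 33.6 and 19.0. TNFRSF10B, a death receptor, stood at 86.8 and 104 against 51.9 and 43.8. CDKN1A, an inhibitor of the cell cycle, was called higher, but its lines overlapped (35.1 and 70.6 against 139 and 63.7 CPM) and its call ended without CFIm68 knockout line 1 (log2 0.25, adjusted p = 0.621), without CFIm59 knockout line 1 (log2 0.53, adjusted p = 0.21) and with DESeq2 (adjusted p = 0.51). For CDKN1A the control, at 45.5 CPM, lay between the 2 lines without CFIm59. Of 10 replication-dependent histone genes, whose normal mRNAs lack a poly(A) tail, 6 were higher and 0 lower. Among them, HIST1H2BK stood at 56.6 and 30.4 against 161 and 139 CPM. HIST1H1C was among the 6, but its lines overlapped (36.3 and 15.8 against 62.6 and 30.7 CPM). Its log2 of 0.91 fell to 0.38 without CFIm59 knockout line 2 and 0.29 without CFIm68 knockout line 1. HIST1H1C and HIST2H2AA3 lost their calls with DESeq2 (adjusted p = 0.595 and 0.0724).

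Of 79 ribosomal protein genes, 3 were higher (3.80%) and 12 lower (15.2%), against 9.84 and 10.7% over all genes, with RPL7A at 5116 and 4512 against 2462 and 2556 CPM. Of 21 hnRNP genes, 1 was higher and 4 lower (4.76 and 19.0%), with HNRNPUL1 at 325 and 314 against 145 and 150 CPM. Over the 14 SR proteins the median log2 was -0.02, where 8 of 12 pairs had moved to proximal. In the microRNA pathway 2 of 13 were higher and 2 lower, 15.4% each way and near the shares over all genes. AGO2 stood at 14.8 and 18.0 CPM in the lines without CFIm59 and 66.9 and 65.0 in the lines without CFIm68 (log2 1.99, SE 0.25, adjusted p = 9.67e-07), with 18.0 in the control.

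Genes with both kinds of difference included members of the RAS and MAPK list, where 3 of 21 sums were higher and 1 lower (14.3 and 4.76%, against 9.84 and 10.7% over all genes). NRAS stood at 39.4 and 38.1 against 99.2 and 82.7 CPM, beside its move to proximal. VMA21 stood at 141 and 173 against 372 and 325 CPM. The control had 83.5 CPM of NRAS, between the 2 lines without CFIm68, and 209 of VMA21, between the 2 genotypes. In the other direction, TNFRSF10B and MDM2 moved to proximal and were lower in sum. MDM2 stood at 159 and 191 against 117 and 102 CPM, with 109 in the control. MDM2 lost that call without CFIm59 knockout line 2 (log2 -0.54, adjusted p = 0.193), without CFIm68 knockout line 2 (log2 -0.58, adjusted p = 0.0658) and with library totals alone as the scale (log2 -0.52, adjusted p = 0.0724).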

How the data were processed

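Poly(A) site sequencing of 2 CFIm59 knockout, 2 CFIm68 knockout and 1 control HEK293T library was used. Per the labels' protocols, 10 µg of RNA was fragmented, primed with oligo(dT) and size-selected to 120 to 200 nt of cDNA. The authors deposited raw read counts per poly(A) site, with positions on hg19. The submitters' processing notes name TopHat2 2.1.0 and deepTools 2.4, and the sources used here do not say how sites were called or internal priming was handled. Repeat listings of a site (17824 of 290072, holding 0 reads) were dropped, and positions are those of the deposited table.

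Pairs averaged 20 or more reads per library and 5 or more per site. Library totals of 1673687 to 2727728 knockout reads set the precision, and read floors and intervals cover counting error only. Ratios, class sums, sites and gene sums were tested with edgeR 4.0.16 (quasi-likelihood, TMM for gene sums, Benjamini-Hochberg, adjusted p under 0.05) in R 4.3.3, after tests on simulated data. DESeq2 1.42.0 was an alternative. SE is the log2 difference divided by the square root of F. Gene-sum CPM were scaled by TMM over the 4 libraries, and the control's over all 5.

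The members and lists were chosen with earlier results of these data known. Named genes were the 10 and 8 last exon pairs, 6 and 6 class sums and 8 and 8 gene sums with the largest differences among those that passed without overlap at 50 or more reads, plus up to 4 members of each list that passed with most reads. Among the largest differences, last exon pairs and class sums with a site listed under several genes were passed over. Symbols typical of clones and noncoding RNAs were passed over as well. The genes with printed sequences, and SRSF10, PAK2, CDC25C and BUB1, were named after their values were seen. A list's count is read beside that over all genes. Whether lines of a genotype came from separate clones is not stated, so p-values measure the spread between these lines.

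Line numbers did not pair the libraries. Letters came from GENCODE 29 transcripts whose end spacing matched, with no coordinate converted between builds. Results of some named genes are not reported here.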

Additional observations from a re-analysis of the deposited data

How the results depend on the processing

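The excess of moves to proximal over moves to distal held in every alternative run on pairs. With 100 reads for both sites and 20 for each, 726 pairs moved to proximal and 144 to distal. Moves to distal numbered 196 with DESeq2 and 236 where the outermost sites formed the pair. Class sums gave 22 higher and 61 lower with DESeq2, 70 and 131 with no read minimum beyond 1, and 50 and 72 with 100 reads for the gene and 20 for each side. With 20 reads per site, 1155 sites gained and 983 lost. Gene sums gave 531 higher and 713 lower with DESeq2. Fewer features were tested under the stricter minimums. For the other settings the cause was not tested.

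Leaving out 1 line in turn gave 1931 to 2336 pairs to proximal and 231 to 327 to distal, 38 to 109 class sums higher and 97 to 147 lower, 2045 to 2925 sites gaining and 1757 to 2217 losing, and 795 to 1191 gene sums higher and 934 to 1258 lower. The low end was without CFIm59 knockout line 2 for every one of these counts. Of the 2402 genes to proximal, 1823 were still called by DESeq2 and 1878 to 2200 without 1 line.

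Single genes kept their direction and call in 2264 of their settings, lost the call in 256, gained it in 2 and turned in 18. With the outermost sites as the pair, the log2 values that turned were 3.41 for GCFC2, 1.09 for SYNCRIP, 2.74 for PHF10, 0.53 for SSU72, -0.75 for RBBP6, -0.45 for HNRNPA1, 6.89 for HNRNPD, -0.31 for DICER1, 2.68 for WTAP, 3.93 for ZC3H13, -0.93 for FXR1, 4.79 for RAB11A and -0.12 for UQCRB. With last exon sites only they were -0.35 for FIP1L1, 2.68 for WTAP, 5.74 for ZC3H13 and -1.29 for UQCRB, and with sites ranked by mean CPM 5.02 for SYNCRIP. Another pair of sites was then tested.

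With the line number as a replicate block, 2421 pairs moved to proximal and 381 to distal, 155 class sums were higher and 265 lower, 3215 sites gained and 2566 lost, and 1466 gene sums were higher and 1599 lower. Same-numbered lines did not deviate together (r = -0.01 over gene sums and 0.04 over pairs), so the numbers were not taken as pairs.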

Other observations

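Gene sums also differed by chromosome. Chromosome 22 had 84 genes higher and 13 lower of 338 tested, with a median log2 of 0.42, and chromosome 11 had 127 and 30 of 710, with a median of 0.22. On chromosome X, 106 of 460 were higher and 58 lower. The other direction was seen on chromosome 19, with 30 higher and 200 lower of 885 and a median of -0.37, on chromosome 13, with 13 and 68 of 236 and a median of -0.27, and on chromosome 17, with 23 and 145 of 812 and a median of -0.25. Over all chromosomes the median was -0.01. The part of chromosome in any single gene's difference was not tested.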
